A study of Mus musculus with 12 samples.

Results

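The lactate and pyruvate shuttle was followed here through 9 mouse genes, selected by symbol from the 38924 genes counted in each tumor. The genes are *Slc16a1*, *Slc16a3* and *Slc16a7*, which encode the monocarboxylate transporters MCT1, MCT4 and MCT2, *Bsg* and *Emb*, which encode the chaperones basigin and embigin, *Ldha* and *Ldhb*, the subunits of lactate dehydrogenase, and *Mpc1* and *Mpc2*, the subunits of the mitochondrial pyruvate carrier. RNA-seq had been performed on 12 pancreatic neuroendocrine tumors (PanNETs) of RIP1Tag2 mice on the C57Bl6 strain. In this transgenic model a rat insulin promoter drives a viral oncogene in pancreatic beta cells, so all 3 groups carry the same transgene. There were 4 tumors from control mice given saline, 4 from mice given sunitinib, an inhibitor of VEGF and PDGF receptor kinases, and 4 from mice given rapamycin, an mTOR inhibitor, together with sunitinib (R+S). Per the labels, treatment lasted 4 days from 15.5 weeks of age, and there was no group given rapamycin alone among the samples analysed here.

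Lactate is made from pyruvate at the end of glycolysis and leaves or enters cells with a proton through the monocarboxylate transporters. MCT4 is best known as the exporter of glycolytic cells and is a classical target of the hypoxia-inducible factors, whereas MCT1 has a higher affinity and serves uptake as well as release. Lactate dehydrogenase interconverts pyruvate and lactate, its A subunit prevailing in glycolytic tissue and its B subunit in oxidative tissue, and the mitochondrial carrier hands pyruvate to the matrix. Normal beta cells keep *Slc16a1* and *Ldha* unusually low, which is known as the silencing of disallowed genes.

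Between 31872342 and 44215054 reads per tumor had been counted on genes, and all 9 genes passed the filter on low counts. Levels are given as normalized CPM, which scale each count to the tumor's library size after TMM normalization. All 15 beta cell markers were detected in every tumor. Their summed level ranged from 46341 to 72256 CPM without treatment and from 52154 to 79386 under R+S. Under sunitinib it came to 12216 in tumor 6 and 41134 to 87871 in the other 3. Tumors are named by their label numbers. Sunitinib-treated tumor 6 stood apart from its group, with Pearson correlations of log2 CPM across genes of 0.872 to 0.895 with the other 3, which correlated at 0.957 to 0.978 among themselves. Values without it are therefore given beside the results that it moved most. The labels also carry a prefix, one shared by all 4 control tumors, another by sunitinib-treated tumors 5, 6 and 8 and another by R+S-treated tumors 5 and 7. What a prefix stands for is not stated in the labels, prefix and treatment cannot be told apart, and the p-values treat the 4 tumors of a group as independent.

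Of the 9 genes, *Slc16a3* and *Ldha* were higher in sunitinib-treated than in control tumors and lower in R+S-treated than in sunitinib-treated tumors. No other gene of the shuttle passed the threshold in any of the 3 comparisons, and none passed it for R+S versus control. The quasi-likelihood test of edgeR was used, and a gene was called where its p, adjusted over the 16645 genes tested, was under 0.05. Under this rule 2 of the 9 genes were called for sunitinib versus control, beside 4.48% of all genes tested, and both were higher, as were 1.93% of all genes, while 0 of the 9 and 2.55% of all genes were lower. For R+S versus control it was 0 of 9 beside 4.16% of all genes, of which 1.55% were higher and 2.61% lower. For R+S versus sunitinib it was 2 of 9 beside 7.21%, both lower, as were 4.58% of all genes, while 0 of the 9 and 2.63% of all genes were higher. At an unadjusted p under 0.05, edgeR had 6, 1 and 5 of the 9 genes in these comparisons, beside 19.5%, 20.1% and 30.4% of all genes. DESeq2 called 4, 1 and 4 after adjustment, beside 8.87%, 10.1% and 18.3% of all genes, so that it called more genes throughout. The median log2 fold change of the 9 genes was 1.06 for sunitinib versus control, 0.16 for R+S versus control and −0.75 for R+S versus sunitinib, beside 0.03, 0.0094 and −0.025 over all genes tested. Without sunitinib-treated tumor 6 the medians of the 9 genes were 0.49, 0.16 and −0.41. These comparisons share their groups, so that a high sunitinib-treated tumor enters both the first and the last. The 9 genes were chosen with earlier results of these data known, so their counts beside the shares of all genes are a description. In bulk tumors, fewer cells of a type and less RNA per cell cannot be told apart, and markers of acinar and endothelial cells also differed between the groups, with their values given after those of the genes.

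**Figure D1:**
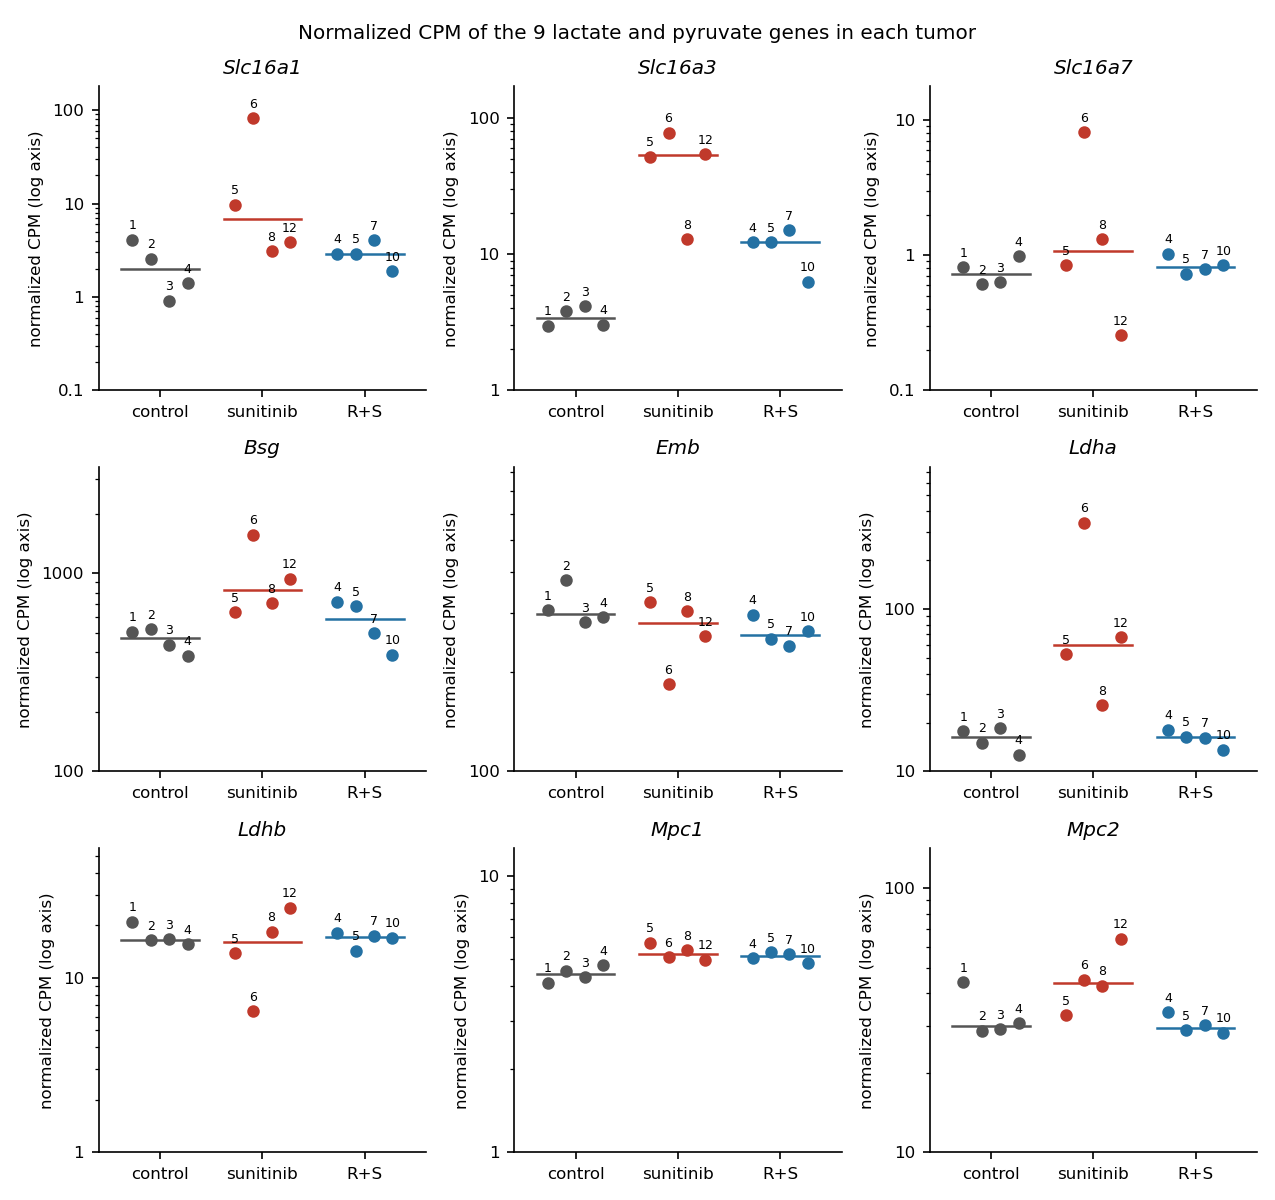
Normalized CPM (log axis) of the 9 genes in each of the 12 tumors; each point is a tumor with its number, and the line is the median of the 4 tumors in a group. *Slc16a3* separates the control tumors (2.99 to 4.16) from every treated tumor. Sunitinib-treated tumor 6 is the highest point for *Slc16a1*, *Slc16a3*, *Slc16a7*, *Bsg* and *Ldha*.

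*Slc16a3* (ENSMUSG00000025161, chromosome 11, 120948480 to 120960868 on the plus strand of GRCm38) encodes MCT4. Its level was 2.99, 3.81, 4.16 and 3.04 CPM in control tumors 1 to 4, which is 3.50 ± 0.576 (SD, n = 4). In sunitinib-treated tumors 5, 6, 8 and 12 it was 52.0, 78.4, 12.9 and 54.6 CPM, and in R+S-treated tumors 4, 5, 7 and 10 it was 12.2, 12.2, 15.1 and 6.29 CPM. Every treated tumor thus lay above every control tumor, and of the sunitinib-treated tumors only tumor 8 fell within the range of the R+S group. The gene was 14.1-fold higher under sunitinib than in control tumors (log2 fold change 3.82, standard error 0.48, adjusted p = 0.000554 in edgeR). The value without tumor 6 was 3.51 on the log2 scale, with an adjusted p of 0.000779 in edgeR. Rapamycin with sunitinib gave a lower level than sunitinib alone, by −2.11 on the log2 scale (standard error 0.44, adjusted p = 0.0277 in edgeR). These groups overlapped, with p = 0.0571 in the two-sided exact permutation test. The edgeR call was lost when any of R+S-treated tumors 4, 5, 7 or 10 was left out. The adjusted p-values were then 0.0724, 0.0966, 0.0686 and 0.0580 in edgeR, with log2 fold changes between −2.27 and −1.91. Without sunitinib-treated tumor 6 it was −1.80 with an adjusted p of 0.0318 in edgeR. For R+S versus control the log2 fold change of *Slc16a3* was 1.71 (95% confidence interval 0.74 to 2.67), and its adjusted p of 0.0524 in edgeR missed the threshold. Leaving out sunitinib-treated tumor 6, sunitinib-treated tumor 8 or R+S-treated tumor 10 brought it to 0.0259, 0.00585 and 0.0419 in edgeR. It was also under the threshold with DESeq2 (adjusted p = 0.00250) and with only the 8 tumors compared (0.00591 in edgeR). The same held with treated tumors of 1 label prefix summed (0.0132 in edgeR), where the control tumors, which share 1 prefix, were kept apart. With only the 8 tumors, 15.8% of all genes were called for R+S versus control. In that setting the call of *Slc16a3* for R+S versus sunitinib was lost (adjusted p = 0.103 in edgeR).

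*Ldha* (ENSMUSG00000063229, chromosome 7, 46841475 to 46855627, plus strand), which encodes the subunit that prevails where pyruvate is reduced to lactate, had 17.7, 14.999, 18.5 and 12.7 CPM in control tumors 1 to 4. It had 52.8, 340.4, 25.5 and 66.9 CPM in sunitinib-treated tumors 5, 6, 8 and 12, all above the controls. In R+S-treated tumors 4, 5, 7 and 10 it had 18.1, 16.4, 16.2 and 13.6 CPM, a range that lies inside that of the control tumors. Sunitinib-treated tumors exceeded control tumors 7.60-fold, a log2 difference of 2.93 (standard error 0.65, adjusted p = 0.0249 in edgeR). Tumor 6 carried much of its size, since the log2 difference without that tumor was 1.60 (standard error 0.27, adjusted p = 0.00448 in edgeR). The call was lost when any of control tumors 1 to 4 was left out, with adjusted p-values of 0.0625, 0.0737, 0.0754 and 0.0882 in edgeR and log2 fold changes of 2.83 to 3.00. With only the 8 tumors compared it was lost too (adjusted p = 0.105 in edgeR). From sunitinib-treated to R+S-treated tumors *Ldha* differed by −2.92 on the log2 scale (standard error 0.65, adjusted p = 0.0306 in edgeR), and every R+S-treated tumor lay below every sunitinib-treated tumor. It was −1.59 without tumor 6, with an adjusted p of 0.0195 in edgeR. Without control tumor 3 or R+S-treated tumor 4, 5, 7 or 10 the adjusted p in edgeR was 0.0510, 0.0791, 0.101, 0.0778 and 0.0695. With only the 8 tumors compared the adjusted p was 0.104 in edgeR. Against control, R+S gave a log2 fold change of 0.0068, with a 95% confidence interval of −1.32 to 1.34, which leaves room for a change of either sign.

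The promoter sequences of *Slc16a3* and *Ldha*, the genes called, and of *Ldhb*, the partner subunit that was not called, are shown for the core of the hypoxia response element, spelled ACGTG or GCGTG and searched on both strands. They are the 250 bases before the start site in RefSeq on GRCm38.p6, read on the gene's strand, with each match in capitals. Those of *Slc16a3* and *Ldha* lie inside the gene's annotated span, at a start downstream of its first. The windows are chr11:120948817-120949066 for *Slc16a3*, chr7:46845554-46845803 for *Ldha* and chr6:142507958-142508207, minus strand, for *Ldhb*.
Slc16a3: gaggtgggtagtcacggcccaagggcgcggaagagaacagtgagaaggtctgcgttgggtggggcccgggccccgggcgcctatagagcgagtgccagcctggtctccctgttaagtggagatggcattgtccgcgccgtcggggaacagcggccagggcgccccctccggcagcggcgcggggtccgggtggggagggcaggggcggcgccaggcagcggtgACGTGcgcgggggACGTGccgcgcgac
Ldha: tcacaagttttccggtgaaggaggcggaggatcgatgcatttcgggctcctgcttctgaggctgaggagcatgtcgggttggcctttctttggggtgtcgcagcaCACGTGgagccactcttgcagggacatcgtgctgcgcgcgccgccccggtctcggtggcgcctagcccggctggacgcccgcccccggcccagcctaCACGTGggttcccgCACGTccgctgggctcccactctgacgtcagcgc
Ldhb: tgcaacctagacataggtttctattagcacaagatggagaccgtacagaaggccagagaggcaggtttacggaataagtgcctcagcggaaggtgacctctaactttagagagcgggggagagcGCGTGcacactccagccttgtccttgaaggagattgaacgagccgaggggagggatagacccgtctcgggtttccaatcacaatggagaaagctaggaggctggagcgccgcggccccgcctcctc
The *Slc16a3* window held 2 matches, both ACGTG on the gene's strand, and 16.7% of the 32841 promoter windows of this length held at least as many. The *Ldha* window held 5, all ACGTG, and 1.01% of windows held at least as many. The palindrome CACGTG, which also is the core of the E-box, counts on both strands and accounts for 4 of these 5. A second annotated *Ldha* start had 1 match, as did *Ldhb*, and 38.6% of windows had at least 1. Of the other genes with a window, *Slc16a1* had 4 (2.59% of windows held as many), *Mpc2* 1, *Mpc1* 1 at the first of its starts and 0 at the other, and *Emb* 0. Windows were found for 7 of the 9 genes. These are matches of letters, and no binding was measured.

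*Slc16a1* (ENSMUSG00000032902, chromosome 3, 104638668 to 104658462, plus strand) encodes MCT1. Control tumors 1 to 4 had 4.09, 2.57, 0.913 and 1.41 CPM, sunitinib-treated tumors 5, 6, 8 and 12 had 9.72, 82.4, 3.11 and 3.88, and R+S-treated tumors 4, 5, 7 and 10 had 2.91, 2.90, 4.05 and 1.88. The high mean of the sunitinib group was therefore the value of tumor 6, and the sunitinib-treated tumors 8 and 12 lay within the control range. For sunitinib versus control it differed by 3.46 on the log2 scale (standard error 0.99), with an adjusted p of 0.0786 in edgeR, and it was 1.31 with an adjusted p of 0.193 in edgeR without tumor 6. Leaving out sunitinib-treated tumor 8 instead gave 3.83 and an adjusted p of 0.0400 in edgeR, and DESeq2 called the gene on all tumors (adjusted p = 0.000821). R+S versus sunitinib differed by −3.08 on the log2 scale (standard error 0.97, adjusted p = 0.0689 in edgeR), and −0.92 without tumor 6. Without sunitinib-treated tumor 5 it was −3.33 with an adjusted p of 0.0470 in edgeR, and DESeq2 called this difference too (adjusted p = 0.00344).

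*Slc16a7* (ENSMUSG00000020102, chromosome 10, 125219270 to 125389465, minus strand), the gene of the high-affinity transporter MCT2, had the lowest median level per length of the 9 genes in every group. Control tumors had 23 to 38 reads on it and R+S-treated tumors 29 to 37. Among sunitinib-treated tumors, tumor 6 had 294 reads, or 8.12 CPM, and the other 3 had 0.257 to 1.32 CPM. Sunitinib versus control differed by 1.79 on the log2 scale (standard error 0.79, adjusted p = 0.235 in edgeR) with tumor 6 and 0.095 without it. R+S versus sunitinib gave −1.63 with tumor 6 and 0.062 without it, and neither passed the test (adjusted p = 0.1797 and 0.9306 in edgeR).

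The chaperones carry the transporters to the plasma membrane, basigin for MCT1 and MCT4 and embigin chiefly for MCT2. *Bsg* (ENSMUSG00000023175, chromosome 10, 79704491 to 79711969, plus strand) had 508, 523, 436 and 384 CPM in control tumors 1 to 4. It had 638, 1565, 704 and 941 CPM in sunitinib-treated tumors 5, 6, 8 and 12, each above every control tumor, and 718, 684, 498 and 389 in R+S-treated tumors 4, 5, 7 and 10, which overlapped both other groups. The log2 fold change for sunitinib versus control was 1.06 (95% confidence interval 0.43 to 1.69), and its adjusted p of 0.0654 in edgeR missed the threshold. It was 0.72 with an adjusted p of 0.0950 in edgeR without tumor 6, and 1.22 with an adjusted p of 0.0346 in edgeR without sunitinib-treated tumor 5. It was called by DESeq2 (adjusted p = 0.00686) and with treated tumors of 1 label prefix summed (adjusted p = 0.0382 in edgeR). In the latter setting the control tumors, which share 1 prefix, were kept apart. R+S versus sunitinib gave −0.75 (adjusted p = 0.109 in edgeR), and −0.41 without tumor 6.

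*Emb* (ENSMUSG00000021728, chromosome 13, 117208536 to 117274415, plus strand) had 282 to 377 CPM in control tumors, 183 to 324 in sunitinib-treated and 240 to 297 in R+S-treated tumors. The groups overlapped in all 3 comparisons, with log2 fold changes of −0.24, −0.26 and −0.019. The lowest value, 183, was that of sunitinib-treated tumor 6, in which *Bsg* had its highest.

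*Ldhb* (ENSMUSG00000030246, chromosome 6, 142490249 to 142507957, minus strand), the subunit linked to lactate oxidation, ranged from 15.6 to 21.004 CPM in control tumors and from 14.3 to 18.1 under R+S. In sunitinib-treated tumors 5, 6, 8 and 12 it had 13.8, 6.47, 18.4 and 25.2 CPM, so that these 4 tumors spread to both sides of the control range. Its log2 fold change for sunitinib versus control was −0.13, with a 95% confidence interval of −0.81 to 0.56.

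The mitochondrial carrier needs both of its subunits. *Mpc1* (ENSMUSG00000023861, chromosome 17, 8282904 to 8297661, plus strand) had 4.11 to 4.76 CPM in control tumors, 4.97 to 5.74 in sunitinib-treated and 4.83 to 5.30 in R+S-treated tumors. Neither treated group overlapped the controls, but the log2 fold changes of 0.26 and 0.20 did not pass the test (adjusted p = 0.410 and 0.517 in edgeR). *Mpc2* (ENSMUSG00000026568, chromosome 1, 165460637 to 165481214, plus strand) had 44.0 CPM in control tumor 1 and 28.8 to 30.9 in the other controls, 33.0 to 64.3 in sunitinib-treated and 28.3 to 33.8 in R+S-treated tumors. Its log2 fold change was 0.48 for sunitinib versus control (adjusted p = 0.213 in edgeR) and −0.61 for R+S versus sunitinib (adjusted p = 0.0775 in edgeR). Without sunitinib-treated tumor 5 the latter was −0.75 with an adjusted p of 0.0259 in edgeR, and DESeq2 called it on all tumors (adjusted p = 0.0327).

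**Figure D2:**
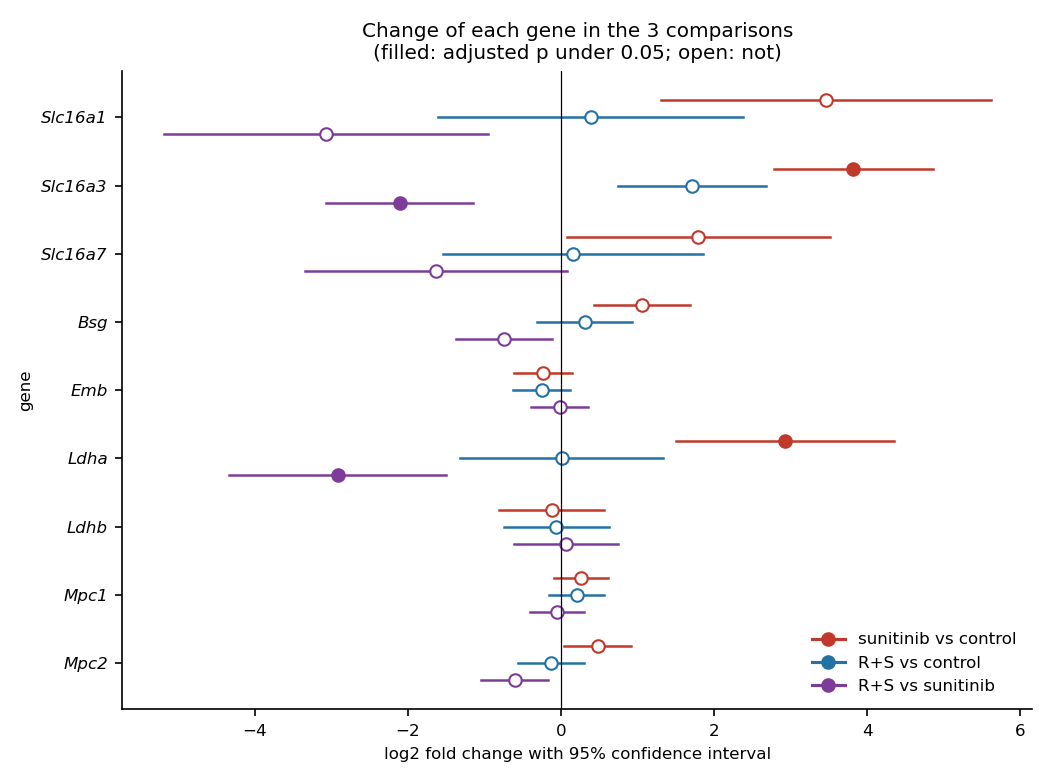
Log2 fold change (x axis) of each gene (y axis) in the 3 comparisons, from the fit of all 12 tumors; lines are 95% confidence intervals and filled points passed an adjusted p of 0.05 in edgeR. *Slc16a3* and *Ldha* are the genes with filled points, at 3.82 and 2.93 for sunitinib versus control and at −2.11 and −2.92 for R+S versus sunitinib.

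Groups that do not overlap were found for 4 of the 9 genes in sunitinib versus control (*Slc16a3*, *Bsg*, *Ldha* and *Mpc1*, all higher under sunitinib), or 44.4%, beside 10.9% of all genes tested. R+S versus control had 2 of 9 (*Slc16a3* and *Mpc1*), or 22.2%, close to the 23.5% of all genes. R+S versus sunitinib had 1 of 9 (*Ldha*), or 11.1%, beside 18.6%. The two-sided exact permutation test over the 70 arrangements of 4 tumors against 4 gives p = 0.0286 in each such case, which is the smallest it can give. Since the 9 genes were chosen with earlier results of these data known, the shares above are a description.

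The level of these genes per length was compared as normalized CPM per kilobase of merged exons. In control tumors the median order was *Bsg* (260.0), *Emb* (43.4), *Ldhb* (10.5), *Ldha* (4.93), *Mpc2* (4.09), *Mpc1* (2.13), *Slc16a3* (0.644), *Slc16a1* (0.449) and *Slc16a7* (0.0611). Neighbours in this order did not overlap over the 4 tumors, except *Ldha* with *Mpc2* and *Slc16a3* with *Slc16a1*. Under sunitinib *Ldha* (18.1) and *Slc16a3* (10.0) had moved up in the median order, but 5 neighbouring pairs did not separate, since *Emb* with *Ldha*, *Ldha* with *Ldhb*, *Ldhb* with *Slc16a3*, *Slc16a3* with *Mpc2*, and *Mpc1* with *Slc16a1* all overlapped. In R+S-treated tumors the order was that of the control tumors, with *Slc16a3* at 2.30 and overlapping *Mpc1*. The place of *Mpc2* depends on the length used, since the gene has 7344 bases of merged exons but 1025 in its principal transcript. By principal transcripts, a choice made after seeing the data, *Mpc2* came after *Emb* in each group, in control tumors with 29.3 per kilobase.

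The balance of paired genes was compared within each tumor as the log2 ratio of counts, which does not depend on library size. Of the reads on *Ldha* and *Ldhb* together, the share of *Ldha* was 44.8% to 52.7% in control tumors and 44.4% to 53.4% under R+S. In sunitinib-treated tumors 5, 6, 8 and 12 it took 79.3%, 98.1%, 58.1% and 72.6%, all above both other groups. The mean log2 ratio of *Ldha* to *Ldhb* differed by 2.51 between sunitinib-treated and control tumors and by −2.44 between R+S-treated and sunitinib-treated tumors. Tumor 6 carried much of both, which were 1.40 and −1.33 without it. On all tumors each had p = 0.0286 in the two-sided exact permutation test, the smallest that 4 against 4 allows, and 0.114 after adjustment over the 12 ratio tests. None of the 12 passed after adjustment. An adjusted p under 0.05 would have needed most of the 12 tests at that smallest p, so this outcome was nearly fixed by the number of tumors.

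The ratio of *Emb* to *Bsg* was lower in all 4 sunitinib-treated tumors (log2 ratio −3.09 to −0.98) than in the control tumors (−0.73 to −0.39), with a mean difference of −1.24 (exact permutation p = 0.0286, adjusted 0.114), which was −0.80 without tumor 6. In R+S-treated tumors it ran from −1.44 to −0.55 and overlapped both. The ratio of *Slc16a3* to *Slc16a1* did not separate the groups. It was −0.45 to 2.17 in control tumors and −0.072 to 3.81 in sunitinib-treated tumors, where tumor 6 had the lowest and tumor 12 the highest value. The difference between these groups was 1.202 with tumor 6 and 1.91 without it, and that between R+S and sunitinib −0.11 and −0.82. R+S-treated tumors were close to each other, at 1.73 to 2.07. The ratio of *Mpc1* to *Mpc2* overlapped in all 3 comparisons, with differences of −0.20, 0.31 and 0.52.

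**Figure D3:**
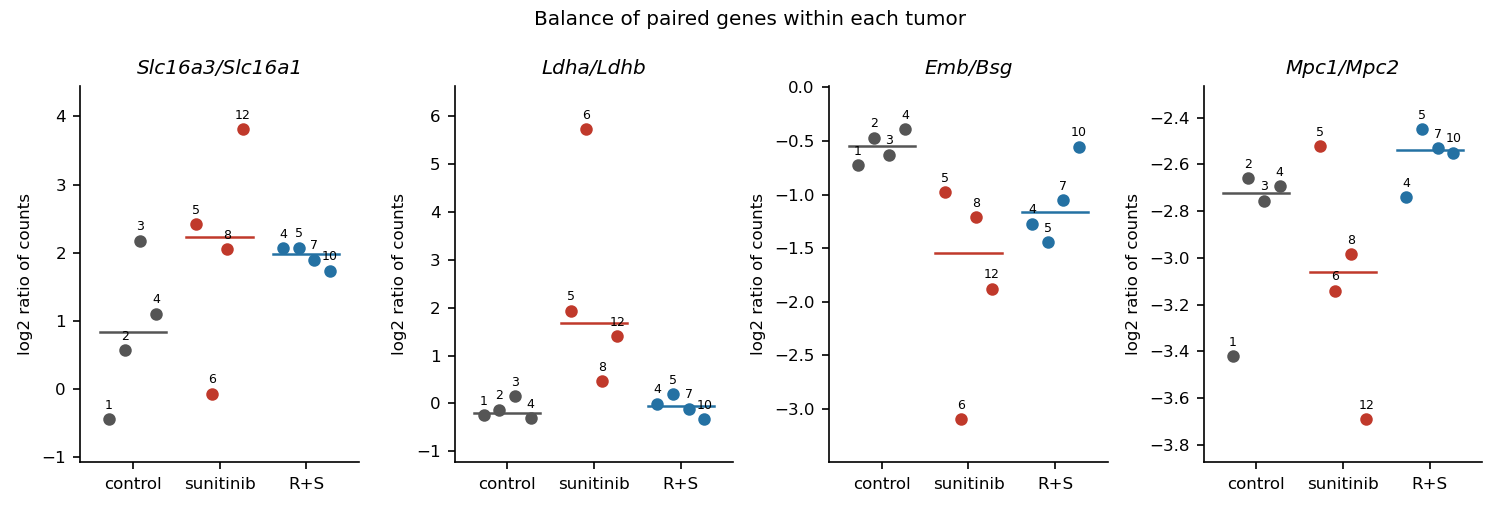
Log2 ratio of counts (y axis, each count plus 0.5) of 4 pairs of genes in each tumor; points are tumors with their numbers and lines are group medians. *Ldha*/*Ldhb* is higher in the 4 sunitinib-treated tumors (0.47 to 5.71) than in the other 8, which span −0.32 to 0.20.

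The other genes of the pathway were followed through lists of further monocarboxylate carriers and of enzymes and regulators that handle pyruvate and lactate. Of 15 further carriers, their chaperone and the lactate receptor, 10 were tested. For sunitinib versus control 1 of these was higher and 1 lower. The higher one was *Slc16a5*, which passed the filter on low counts only through the tumors where it is high, so its call is a description. For R+S versus control 0 were called (1 at an unadjusted p under 0.05 in edgeR, and 1 called by DESeq2), and for R+S versus sunitinib 1 was higher. That is 20%, 0% and 10%, beside 4.48%, 4.16% and 7.21% of all genes. The median log2 fold changes of these 10 genes were 0.43, 0.20 and −0.22. Of 25 enzymes and regulators, 22 were tested, with 1 higher for sunitinib versus control, 1 higher for R+S versus control and 1 lower for R+S versus sunitinib. That is 4.55% of this list each time, beside 4.48%, 4.16% and 7.21% of all genes, near the first shares and below the last. Their medians were 0.11, 0.0051 and −0.21.

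*Pdk1*, the kinase that inhibits pyruvate dehydrogenase and so keeps pyruvate from the mitochondrial acetyl-CoA pool, was higher under both treatments. It had 50.03, 36.1, 34.2 and 36.2 CPM in control tumors 1 to 4, 140.5, 118, 63.7 and 127 in sunitinib-treated tumors 5, 6, 8 and 12, and 86.9, 94.1, 101 and 56.0 in R+S-treated tumors 4, 5, 7 and 10. Against control, it differed on the log2 scale by 1.52 (standard error 0.25, adjusted p = 0.00420 in edgeR) for sunitinib and 1.11 (standard error 0.25, adjusted p = 0.0319 in edgeR) for R+S. The latter call was lost without control tumor 2, 3 or 4 or R+S-treated tumor 4, 5 or 7, at adjusted p-values of 0.0840, 0.113, 0.0895, 0.0841, 0.0988 and 0.0914 in edgeR. Unlike for *Ldha*, the R+S-treated tumors stayed above all control tumors, while the log2 fold change for R+S versus sunitinib was −0.41 (adjusted p = 0.280 in edgeR).

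*Slc16a9*, a carrier that transports carnitine and creatine, was lower under sunitinib, with 2.85 to 9.74 CPM beside 12.7 to 15.1 in control tumors (log2 fold change −1.28, adjusted p = 0.0385 in edgeR). In R+S-treated tumors it had 12.4 to 19.8 CPM, higher than under sunitinib (log2 fold change 1.45, adjusted p = 0.0291 in edgeR). The first of these calls was kept without sunitinib-treated tumor 6 or 8 or R+S-treated tumor 5 and lost when any of the other 9 tumors was left out, with adjusted p-values up to 0.0940 in edgeR, and the second without sunitinib-treated tumor 12 or any R+S-treated tumor, with adjusted p-values up to 0.0979 in edgeR. *Slc16a5*, the gene of MCT6, had 1, 0, 0 and 0 reads in control tumors 1 to 4 and 53, 85, 81 and 14 in sunitinib-treated tumors 5, 6, 8 and 12. It passed the filter on low counts only through the tumors where it is high, so its call, the higher one among the carriers, is given as a description. The ratio of the summed CPM was 250.03, with a 95% exact interval of 44.4 to 9918 that covers counting error only. R+S-treated tumors 4, 5, 7 and 10 had 5, 20, 0 and 17 reads. *Pdhb*, a subunit of pyruvate dehydrogenase, had 83.4 to 98.5 CPM in R+S-treated and 104 to 141 in sunitinib-treated tumors (log2 fold change −0.44, adjusted p = 0.0417 in edgeR). This small difference lost its call in 10 of the 12 fits that left out 1 tumor, all but those without sunitinib-treated tumor 5 or 6, with adjusted p-values up to 0.125 in edgeR.

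**Figure D4:**
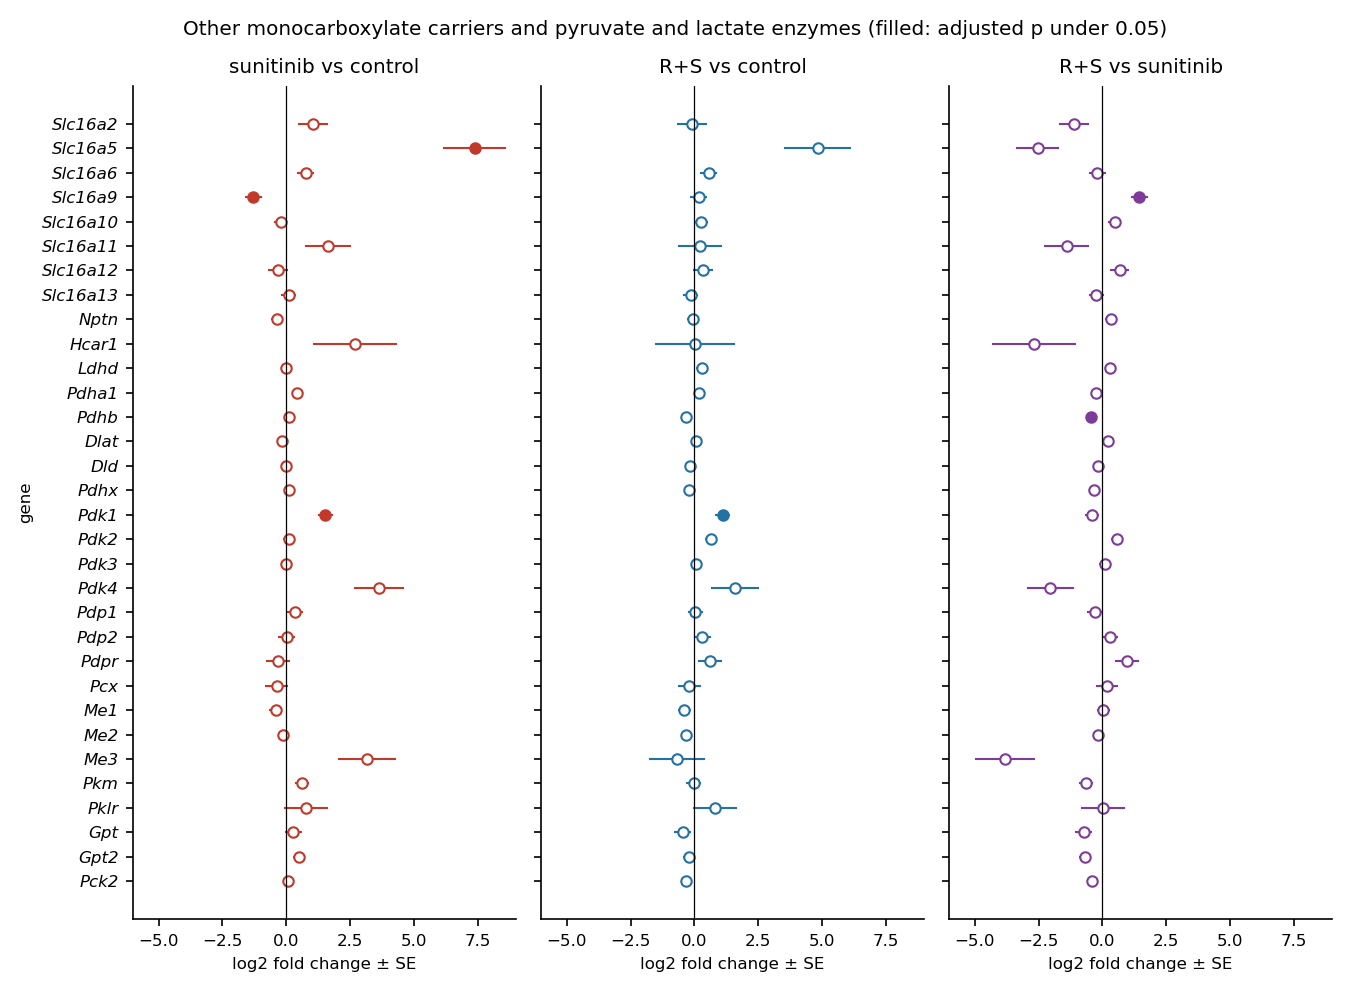
Log2 fold change with its standard error (x axis) of the 32 tested genes of the 2 further lists (y axis) in each comparison; filled points passed an adjusted p of 0.05 in edgeR. The filled points are *Slc16a5*, *Slc16a9* and *Pdk1* for sunitinib versus control, *Pdk1* for R+S versus control, and *Slc16a9* and *Pdhb* for R+S versus sunitinib; the fitted values of *Slc16a5* depend on the prior count, since control tumors had 1 read in all.

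The genes with the pattern most like that of a transporter were ranked by the root mean square difference of log2 CPM, centered over the 12 tumors. For *Slc16a3*, whose own spread on this measure was 1.59, the nearest of 10355 genes were *Aldoa*, a glycolytic aldolase (0.75), *Mmp12*, a macrophage elastase (0.75), *Ankrd37* (0.76) and *Bnip3*, a mitophagy receptor (0.77). *Ankrd37*, for example, had 3.85 to 5.41 CPM in control tumors, 10.7 to 41.4 in sunitinib-treated and 9.90 to 19.97 in R+S-treated tumors. For *Slc16a1*, with a spread of 1.55, they were *Sik1* (0.67), *Npr2* (0.70), *Ldha* (0.71) and *Ckb* (0.75). For *Ldha*, with a spread of 1.32, they were *Igsf9* (0.54), *Sik1* (0.54), *Cd24a* (0.58) and *Fam162a* (0.63). The neighbours of *Slc16a1* and *Ldha* share the high value of sunitinib-treated tumor 6, and all of these values come from the same 12 libraries.

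Markers of other cells moved with treatment beside these genes. The 27 acinar markers summed to 41.8 to 146 CPM in control tumors, 13810 to 49576 in sunitinib-treated and 3648 to 19861 in R+S-treated tumors. Of the 27, 26 were higher in each treated group than in control tumors, beside 1.93% of all genes for sunitinib and 1.55% for R+S. Of the acinar markers, 1 to 8 were at 0 in each control tumor and 0 in each treated tumor. Markers at 0 in control tumors passed the filter on low counts through treated tumors, so their calls are a description. In sunitinib-treated tumors 5, 6, 8 and 12 the acinar sum was 31604, 49576, 40374 and 13810 CPM. With the acinar genes left out of the counts, *Slc16a3* had a log2 fold change of 3.82 for sunitinib versus control (adjusted p = 0.000592 in edgeR) and *Ldha* 2.93 (adjusted p = 0.0253 in edgeR). This setting bears on the normalization only. Reads on the 9 genes that came from acinar cells stay in the counts, so it cannot show the part of those cells. With the mean acinar level as a covariate, 0 of the 9 genes were called in any comparison, with 1, 0 and 3 at an unadjusted p under 0.05 in edgeR. DESeq2 was not run with this covariate. For sunitinib versus control the log2 fold change of *Slc16a3* was then 5.37 (adjusted p = 0.701 in edgeR) and that of *Ldha* 1.32 (adjusted p = 1.00 in edgeR). For R+S versus sunitinib they were −2.38 and −2.62 (adjusted p = 0.0562 and 0.106 in edgeR), beside −2.11 and −2.92 without the covariate. In this fit 94.95% of the variance of the covariate lay between sunitinib-treated and control tumors, so that the covariate and the treatment can hardly be told apart there, and 51.9% between R+S-treated and sunitinib-treated tumors.

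The 13 endothelial markers summed to 639 to 845 CPM in control tumors, 62.0 to 103 in sunitinib-treated and 138 to 178 in R+S-treated tumors. For both treated groups 12 of the 13 were lower than in control tumors, beside 2.55% of all genes for sunitinib and 2.61% for R+S. In R+S-treated tumors 9 were higher than in sunitinib-treated tumors, beside 2.63% of all genes. Of the 15 beta cell markers 0 were called in any comparison, beside 4.48%, 4.16% and 7.21% of all genes in the 3 comparisons. *Slc16a1* and *Ldha* were highest in the tumor with the lowest beta cell sum, sunitinib-treated tumor 6. The part of these cells in the values of the 9 genes was not tested.

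**Figure D5:**
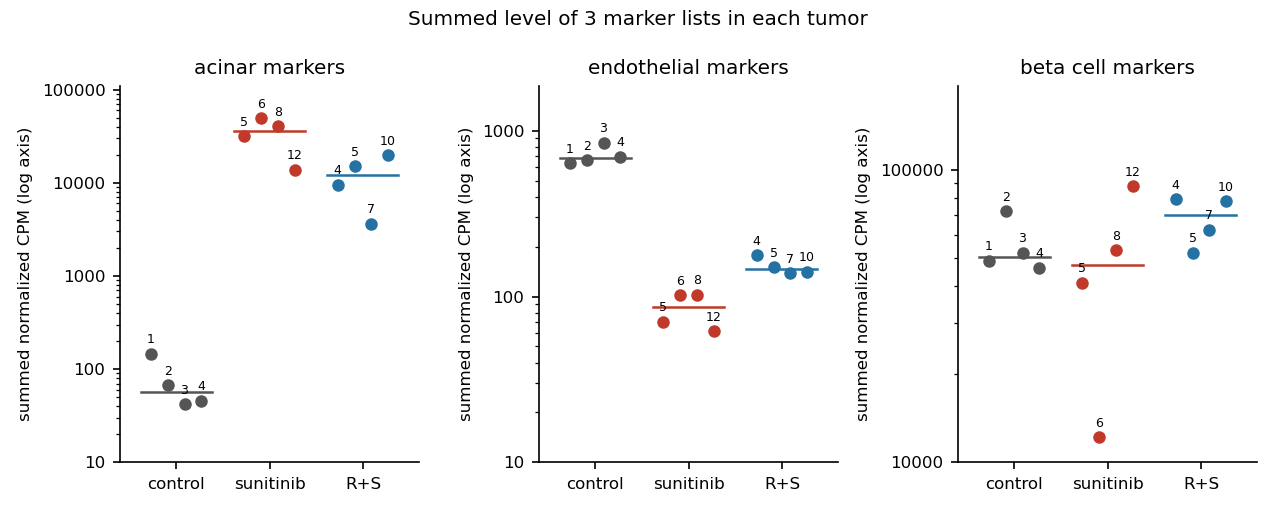
Summed normalized CPM (log axis) of the acinar, endothelial and beta cell markers in each tumor, with tumor numbers and group medians. The acinar sum is at most 146 in control tumors and at least 3648 in treated tumors, the endothelial sum is at least 639 and at most 178, and the beta cell sum is lowest in sunitinib-treated tumor 6, at 12216.

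Several of the 9 genes share sequence with others. Of their 50-base words, 26.3% of *Mpc1*, 20.99% of *Ldhb*, 14.2% of *Emb* and 9.26% of *Ldha* occur in another gene, and at most 1.35% of the other 5. Words were matched on both strands, so the shares also hold words of antisense genes at the same place, where reads need not align to several places. Reads aligned to several places were not counted, so *Mpc1*, *Ldhb*, *Emb* and *Ldha* may be undercounted, to an extent that these shares do not give. The exons of *Emb* overlap the antisense gene *Gm17509* and those of *Mpc1* the antisense gene *4930506C21Rik*. The libraries were stranded, but whether the counting used the strand is not given in the sources used here.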

How the data were processed

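Poly(A) RNA of 12 RIP1Tag2 PanNETs had been made into stranded libraries. For each tumor the authors deposited raw counts per gene, as whole numbers without normalization. The submitters' processing notes name cutadapt 1.2.1, TopHat2 2.0.9, HTSeq 0.5.4p3 and GRCm38; the annotation release is not given in the sources used here. The 5 closing lines of each table (reads on no gene, for example) were left out. Counts per tumor ranged from 31872342 to 44215054 (median 38526164), and genes with few reads remain imprecise.

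Groups and tumor numbers came from the labels. Counts were normalized by TMM, filtered by filterByExpr (minimum count 10, minimum total 15) and tested with edgeR 4.0.16 (limma 3.58.1, R 4.3.3) by its quasi-likelihood F-test with robust estimation. All 12 tumors entered 1 fit with 3 contrasts, and p-values were adjusted by Benjamini-Hochberg over 16645 genes. Each standard error was taken as the size of the log2 fold change over the root of its F statistic, and a prior count of 2 entered log2 CPM. Ratios were tested by two-sided exact permutation. The fit was tested on simulated data. Symbols (37607 of 38924 identifiers matched), exon lengths and coordinates are from GENCODE M21 (GRCm38), promoter sequences from RefSeq.

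All 9 genes are named, as are genes of the other 2 pathway lists past the threshold in any comparison (at most 10 a list), and the 4 tested genes with an average log2 CPM of at least 3 whose pattern is nearest to *Slc16a3*, *Slc16a1* and *Ldha*. The members and lists were chosen with earlier results of these data known. Other marker lists were tallied too, with calls for sunitinib and for R+S versus control. Of the pericyte and fibroblast list 2 and 1 of 12 were lower, of macrophage and myeloid 3 and 1 of 10, and of erythroid 5 and 5 of 5. Beside these, 2.55% and 2.61% of all genes were lower. Of the duct list 3 and 0 of 8 were higher, beside 1.93% and 1.55% of all genes. Alternatives were DESeq2 1.42.0, library-size and upper-quartile scaling, no filter, at least 10 counts in every tumor, only the 8 tumors compared, tumors with 1 label prefix summed (controls kept apart), acinar genes left out, an acinar covariate, no pseudocount in ratios, and each tumor left out in turn.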

Additional observations from a re-analysis of the deposited data

Results flagged for a closer look

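In 39 groups of 4 values (the 9 genes and 4 ratios in each group of tumors), the gap between the most extreme tumor and its neighbour exceeded Dixon's 95% critical value in 5. The usual rate of 1 in 20 cannot be set beside this count. It is for independent, normally distributed values, while gene levels were taken as CPM without logarithm and the 39 groups share tumors. In the sunitinib group, tumor 6 was far above the others for *Slc16a1* (82.4 CPM, the other 3 at 3.11 to 9.72), *Slc16a7* (8.12 CPM, the others at 0.257 to 1.32) and *Ldha* (340.4 CPM, the others at 25.5 to 66.9). The same tumor had the lowest beta cell sum (12216 CPM) and the highest acinar sum (49576 CPM) of its group, and their part in these values was not tested. In the control group, tumor 1 was far above the others for *Mpc2* (44.0 CPM, the other 3 at 28.8 to 30.9) and so far below them in the log2 ratio of *Mpc1* to *Mpc2* (−3.42, the others at −2.75 to −2.66), and these last values share the *Mpc2* counts.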

How the results depend on the processing

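Counts of calls are given for sunitinib versus control, R+S versus control and R+S versus sunitinib in turn, with the value of the 12-tumor edgeR fit first. Of the 9 genes 2, 0 and 2 were called, with DESeq2 4, 1 and 4, with only the 8 tumors compared 1, 1 and 0, and with the acinar covariate 0, 0 and 0 (1, 0 and 3 at an unadjusted p under 0.05 in edgeR). Of all genes, 4.48%, 4.16% and 7.21% were called, with DESeq2 8.87%, 10.1% and 18.3%, with the 8 tumors 2.33%, 15.8% and 0.0186% and with the covariate 0%, 0% and 1.23%. Without a filter 2.58%, 1.89% and 1.91% of all genes were called, and with at least 10 counts in every tumor 2.85%, 3.32% and 9.11%. With prefixes summed the shares were 4.39%, 3.92% and 6.09%, and without the acinar genes 4.25%, 4.02% and 7.74%. With the 8 tumors, *Ldha* kept log2 fold changes of 2.93 and −2.92 and *Slc16a3* −2.11 where their calls were lost. Of the 9 genes 1 was called for R+S versus sunitinib without a filter. With treated tumors of 1 label prefix summed, 3 were called for sunitinib versus control and 1 for R+S versus control. Single tumors left out gave 1 to 3, 0 to 1 and 0 to 4. The same fits called 440 to 902, 292 to 1627 and 0 to 2861 of all genes, beside 745, 693 and 1200 with all tumors. Of the further carriers 2, 0 and 1 were called, and DESeq2 called 1 for R+S versus control and 2 for R+S versus sunitinib. For sunitinib versus control it was 0 with at least 10 counts in every tumor (2 unadjusted in edgeR), 1 with only the 8 tumors and 0 with the covariate (2 unadjusted). R+S versus control had 1 with prefixes summed, and R+S versus sunitinib 0 with the 8 tumors and 0 with the covariate (2 unadjusted each). Single tumors left out gave 1 to 2, 0 to 1 and 0 to 1. Of the enzymes 1, 1 and 1 were called, with DESeq2 4, 2 and 5, and with the covariate 0, 0 and 0 (1, 0 and 6 unadjusted). R+S versus sunitinib had 0 without a filter (9 unadjusted), 3 with at least 10 counts in every tumor, 3 without the acinar genes and 0 with the 8 tumors (6 unadjusted). R+S versus control had 5 with the 8 tumors, and sunitinib versus control 2 with prefixes summed. Single tumors left out gave 1 to 3, 0 to 2 and 0 to 4. *Slc16a5* reversed for sunitinib versus control with the covariate, at −6.89 (adjusted p = 1.00 in edgeR). The causes were not tested. Of the 4 calls among the 9 genes, 13 of 48 values with single tumors left out and 8 of 36 under other settings lost the call. No paired analysis was made, since the labels name no pairs of tumors across the groups.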
